A study of Homo sapiens with 12 samples.

Results

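Expression of 9 genes of MHC class I antigen presentation was examined in HPV+ HNSCC cells treated with the BET bromodomain inhibitor JQ1. The genes were HLA-B, HLA-C, HLA-E, B2M, TAP1, TAP2, PSMB8, PSMB9 and NLRC5, taken by symbol from the 20738 genes of the expression table because they encode successive steps of the class I pathway, and all 9 were found. UM-SCC-47 and UPCI-SCC-090, both HPV+ head and neck squamous carcinoma cell lines, received 500 nM JQ1, or DMSO at 0.1% as the solvent control, over 72 h. Total RNA was sequenced after removal of ribosomal RNA in 4 groups of 3 libraries, UM-SCC-47 JQ1, UM-SCC-47 DMSO, UPCI-SCC-090 JQ1 and UPCI-SCC-090 DMSO, 12 libraries in all. JQ1 occupies the acetyl-lysine pocket of BET proteins, and the treatment was used to ask which genes depend on them. Each line is a single culture-adapted cell line, no cell of the immune system was present, and the sources do not say whether the 3 repeats of a group were grown apart. The p-values thus rest on the spread between libraries, which may be only technical.

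Class I molecules display peptides from inside the cell to CD8+ T cells. Proteins are cut by the proteasome, the peptides are pumped into the endoplasmic reticulum by the TAP transporter, and there they are loaded on a heavy chain (such as HLA-B, HLA-C or HLA-E) paired with the light chain B2M. Interferon-gamma raises the whole pathway, in part by exchanging catalytic subunits of the proteasome for PSMB8, PSMB9 and PSMB10, and NLRC5 is a transactivator of class I genes. Tumors often lower parts of this pathway, and carcinomas caused by HPV are a known example.

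Of the 9 genes, 7 lie in the MHC region of chromosome 6. Their positions in GRCh37 are HLA-E at 30457286 to 30461971, HLA-C at 31236526 to 31239907, HLA-B at 31321649 to 31334844, TAP2 at 32789610 to 32806516, PSMB8 at 32808494 to 32812456, TAP1 at 32812986 to 32821593 and PSMB9 at 32811913 to 32827628. B2M lies on chromosome 15 (45003556 to 45011049) and NLRC5 on chromosome 16 (57023397 to 57117443). TAP2, PSMB8, TAP1 and PSMB9 thus form a cluster of 38019 bases, in which PSMB9 is transcribed in the opposite direction to the other 3. The annotated span of PSMB9 overlaps those of PSMB8 and TAP1, which lie on the opposite strand. That of TAP2 overlaps ENSG00000250264, a gene on the same strand that is also in the expression table. How reads were divided between these was not tested. The class I heavy chains are near-identical in much of their length and highly polymorphic, so the division of reads among them is uncertain, and summed values are given beside the single genes.

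Start regions were taken from RefSeq (GRCh38.p14) as 300 bases, from 250 before to 50 after the start, and were found for 7 of the 9 genes in 9 windows. They are shown for genes that responded unlike each other to JQ1: B2M, called higher in both lines; HLA-B, called higher in 1 line; TAP1 and PSMB9, neighbours whose starts lie 488 bases apart on opposite strands; and PSMB8, called lower in 1 line. The windows are chr15:44711267-44711566 (plus strand) for B2M, chr6:31357130-31357429 (minus strand) for HLA-B, chr6:32853655-32853954 (minus strand) for TAP1, chr6:32853942-32854241 (plus strand) for PSMB9 and chr6:32843998-32844297 (minus strand) for the second of the PSMB8 windows. TAP1 and PSMB8 have 2 windows each, and the one shown is the one with matches to the interferon patterns below. Capitals mark matches on either strand to 4 patterns chosen after the sequences had been seen: GAAANNGAA and GAANNGAAA, short forms of the element that interferon regulatory factors bind, and TGACG and CCAAT, parts of the X2 and Y boxes of class I promoters.
B2M: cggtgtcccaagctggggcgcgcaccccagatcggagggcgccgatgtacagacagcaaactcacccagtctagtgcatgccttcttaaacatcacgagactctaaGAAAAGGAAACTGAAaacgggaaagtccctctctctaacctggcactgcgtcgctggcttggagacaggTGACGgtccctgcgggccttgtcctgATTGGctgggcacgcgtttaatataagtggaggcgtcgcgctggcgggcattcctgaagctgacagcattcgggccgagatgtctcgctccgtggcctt
HLA-B: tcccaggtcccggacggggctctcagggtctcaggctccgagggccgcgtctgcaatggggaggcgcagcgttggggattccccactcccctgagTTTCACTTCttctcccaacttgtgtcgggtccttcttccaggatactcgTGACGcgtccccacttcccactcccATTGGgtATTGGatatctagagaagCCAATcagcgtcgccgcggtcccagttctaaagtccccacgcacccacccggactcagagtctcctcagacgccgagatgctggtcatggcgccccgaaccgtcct
TAP1: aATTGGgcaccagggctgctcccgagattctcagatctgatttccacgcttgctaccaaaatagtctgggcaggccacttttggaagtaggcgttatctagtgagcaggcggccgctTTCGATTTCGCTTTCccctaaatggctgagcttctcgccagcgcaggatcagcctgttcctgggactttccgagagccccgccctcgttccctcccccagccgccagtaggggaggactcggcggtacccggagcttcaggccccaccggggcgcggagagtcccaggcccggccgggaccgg
PSMB9: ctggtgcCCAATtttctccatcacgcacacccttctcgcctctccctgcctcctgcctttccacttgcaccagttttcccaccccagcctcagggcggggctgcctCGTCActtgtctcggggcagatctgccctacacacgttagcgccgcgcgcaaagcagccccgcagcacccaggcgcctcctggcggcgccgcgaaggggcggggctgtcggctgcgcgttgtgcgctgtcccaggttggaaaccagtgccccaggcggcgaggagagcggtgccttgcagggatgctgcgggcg
PSMB8: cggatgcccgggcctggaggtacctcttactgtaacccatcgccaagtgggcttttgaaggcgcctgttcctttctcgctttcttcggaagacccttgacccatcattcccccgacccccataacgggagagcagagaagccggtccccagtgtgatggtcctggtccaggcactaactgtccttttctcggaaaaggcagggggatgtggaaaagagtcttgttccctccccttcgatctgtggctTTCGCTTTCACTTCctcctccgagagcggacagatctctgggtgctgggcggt
The B2M and TAP1 windows each held 2 overlapping GAAANNGAA matches, the PSMB8 window held 1 that overlapped a GAANNGAAA match, and the HLA-B window held 1 GAANNGAAA match, whereas the PSMB9 window held neither pattern. The TAP1 matches lie between the starts of TAP1 and PSMB9 but outside the PSMB9 window, so this contrast depends on where the window ends. Of all 35116 windows of this length, 8.11% held GAAANNGAA, 7.66% GAANNGAAA, 24.6% TGACG and 34.6% CCAAT. The window of TAP1 that is not shown held no match to any of the patterns, and that of PSMB8 held a TGACG match only. A match describes letters only and shows no bound factor. The HLA-B window held 1 TGACG and 3 CCAAT matches, the B2M window 1 of each, and the PSMB9 window 1 of each.

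The libraries held 20349275 to 30788657 estimated counts. Levels are CPM, counts scaled to the library total with TMM factors, and a gene was called changed at a Benjamini-Hochberg adjusted p under 0.05 in edgeR's quasi-likelihood test over all genes. The share of counts in genes of cytosolic ribosomal proteins was 10.5% to 11.1% in UPCI-SCC-090 JQ1, against 4.25% to 5.73% in UPCI-SCC-090 DMSO, and 6.06% to 8.53% in UM-SCC-47 JQ1, against 5.86% to 6.13% in UM-SCC-47 DMSO. Libraries also differed in how the counts depended on the GC content of genes. For each library, the deviation of log2 CPM from the mean of its own line was set against GC content. Its slope per 10 points of GC was 0.73 in UPCI-SCC-090 DMSO replicate 2 and 0.50 in UPCI-SCC-090 JQ1 replicate 2, but -0.81 in UPCI-SCC-090 JQ1 replicate 3 and -0.56 in UM-SCC-47 JQ1 replicate 3. Among the 9 genes, GC content was 41.3% in B2M, 48.9% in TAP2 and 52.5% to 64.7% in the others. Epithelial markers were at 1 CPM or more for at least 7 of 8 genes in every group, and their sum was 37700 to 56000 CPM in UM-SCC-47 JQ1, against 9310 to 10800 CPM in UM-SCC-47 DMSO, and 3350 to 4620 CPM in UPCI-SCC-090 JQ1, against 3220 to 3690 CPM in UPCI-SCC-090 DMSO. The sum in UM-SCC-47 was carried by KRT8 (27800 CPM with JQ1 and 5530 CPM with DMSO, means) and KRT18 (15500 and 2230 CPM), while means of KRT5 (172 and 607 CPM) and TP63 (48.5 and 391 CPM) were lower with JQ1. Of 8 leukocyte markers at most 3 reached 1 CPM in a group, with sums of 6.56 to 44.1 CPM over all libraries and the B-cell marker MS4A1 at 0 in every library. Of 6 fibroblast markers 1 reached 1 CPM in each group, and their sum was lower with JQ1 (4.94 to 6.07 CPM in UM-SCC-47 JQ1 and 2.68 to 5.47 CPM in UPCI-SCC-090 JQ1, against 12.8 to 14.9 CPM in UM-SCC-47 DMSO and 17.4 to 29.2 CPM in UPCI-SCC-090 DMSO). Results with a correction for GC content are given below, and the part of the other differences in the results was not tested.

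In the DMSO libraries UPCI-SCC-090 expressed every one of the 9 genes at a lower level than UM-SCC-47, and 9 of 9 were called lower, where 25.3% of the 14108 genes tested were called lower and 22.7% higher. The 3 libraries of the lines did not overlap for any of the 9, where 27.6% of all genes were lower without overlap and 30.6% higher. PSMB9, a catalytic subunit of the immunoproteasome, was furthest apart, with 0.432, 0.656 and 0.872 CPM in UPCI-SCC-090 DMSO, against 65.3, 62.1 and 59 CPM in UM-SCC-47 DMSO (log2 fold change -6.73 ± 0.32 SE, edgeR adjusted p = 8e-06). HLA-B followed, at 24.6, 43.0 and 43.7 CPM in UPCI-SCC-090 DMSO, against 451, 462 and 405 CPM in UM-SCC-47 DMSO (-3.74 ± 0.25, edgeR adjusted p = 2.2e-05). These libraries are also the controls of the comparisons with JQ1 below.

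The sizes of 6 other genes lay between these and that of HLA-E. The log2 fold change between the lines was -3.37 for PSMB8, -3.31 for B2M, -2.42 for HLA-C, -2.19 for TAP2, -2.09 for NLRC5 and -2.07 for TAP1. HLA-E, a heavy chain that presents leader peptides of other class I molecules to natural killer cells, differed least, at 92.7, 161 and 143 CPM in UPCI-SCC-090 DMSO, against 277, 323 and 262 CPM in UM-SCC-47 DMSO (-1.30 ± 0.21, edgeR adjusted p = 0.0019). All 9 calls held under each of 16 alternative settings. Lists of genes around the pathway went both ways in the same contrast. The class II genes, inhibitory ligands and interferon-stimulated genes were called lower only, a pattern that the filter on low counts favors, as given below. Of 10 other class I and class I-like genes 1 was called higher (ULBP3, 1.05) and 5 lower, among them HLA-F (-3.78). Of 11 peptide loading genes 1 was called higher (PDIA3, 0.80) and 6 lower, among them the peptide trimming enzymes ERAP1 (-3.01) and ERAP2 (-7.92). ERAP2 had a mean of only 0.27 CPM in UPCI-SCC-090 DMSO, so the size of its fold change is uncertain. Of 19 other proteasome genes 3 were called higher (PSMA3, 1.44; PSMB5, 1.21; PSMB4, 0.99) and 3 lower (PSMB10, -3.63; PSMA1, -1.25; PSMA5, -0.74). Of 16 genes of transcriptional control 2 were called higher (RFXANK, 1.11, and RFX5, 0.92) and 4 lower, among them the interferon response factor IRF1 (-3.48). Of 7 genes of the interferon-gamma receptor and its signal 1 was called higher (SOCS1, 3.33) and 2 lower (SOCS3, -2.82, and JAK1, -1.87). Of 3 class II genes tested 0 were called higher and 3 lower, among them CD74 (-10.5, with a mean of 0.0108 CPM in UPCI-SCC-090 DMSO). Of 3 inhibitory ligands 0 were called higher and 3 lower, among them CD47 (-3.06). Of 15 interferon-stimulated genes outside class I that were tested, 15 were called lower in UPCI-SCC-090 DMSO. Their median was -6.25 on the log2 scale, beside -0.01 over all genes. Some of them had almost no counts in UPCI-SCC-090 DMSO, such as GBP2 (mean 0.0323 CPM), IFIT3 (0.119 CPM) and OAS2 (0.193 CPM). Such genes could pass the filter on low counts only through UM-SCC-47 DMSO, where they were higher. The same holds for ERAP2, for the class II genes called, among them CD74, and for the inhibitory ligands other than CD47. Nothing is therefore read from the counts of class II genes, inhibitory ligands and interferon-stimulated genes called, or from the median of -6.25. The fewer RNA molecules per cell and the fewer expressing cells that could give such a level cannot be told apart in bulk RNA.

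**Figure D1:**
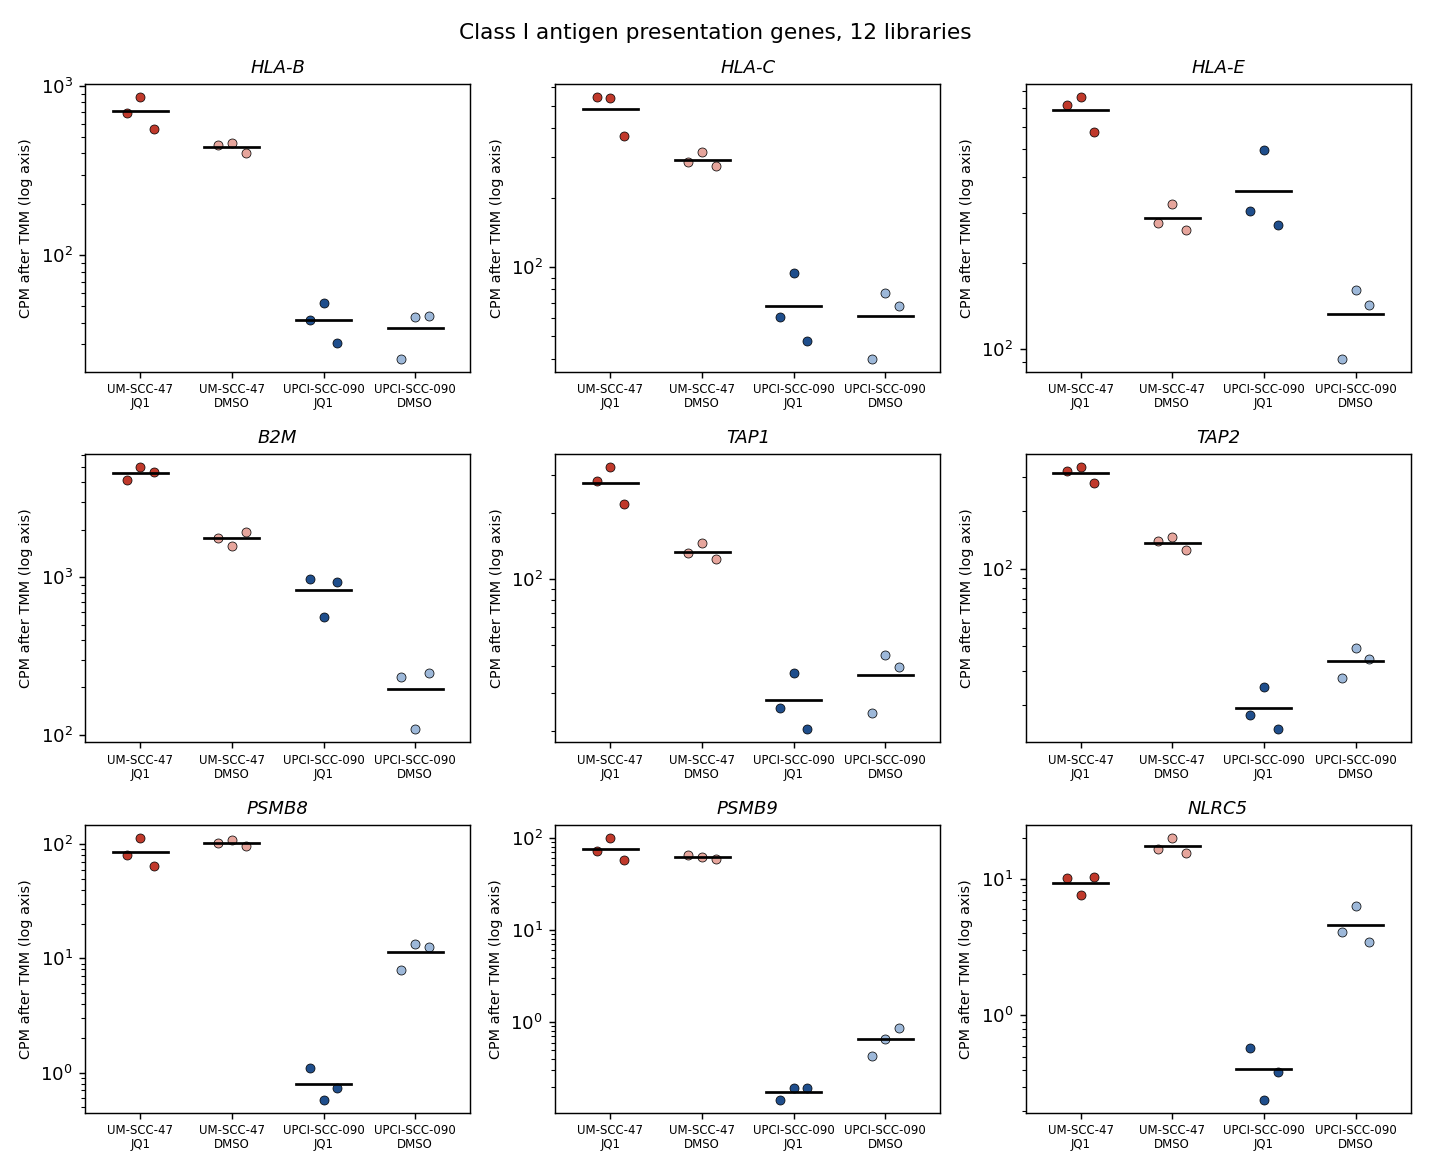
Level of each of the 9 genes in each library, in CPM after TMM scaling on a log axis, with the groups on the horizontal axis; points are the 3 libraries of a group and the bar is their mean. UM-SCC-47 lies above UPCI-SCC-090 with DMSO for every gene, B2M and HLA-E are higher with JQ1 in both lines, and PSMB8 in UPCI-SCC-090 averages 0.80 CPM with JQ1 and 11.3 CPM with DMSO.

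With JQ1 the class I genes of UM-SCC-47 were mostly higher. Of the 9 genes 6 were called higher, where 16.1% of the 13440 genes tested were, and 1 was called lower, where 25.5% were. The same 7 genes showed no overlap between the 3 JQ1 and 3 DMSO libraries, where 22.8% of all genes were higher without overlap and 32.5% lower. In UPCI-SCC-090 only B2M and HLA-E were called higher (2 of 9, where 7.67% of 13150 genes were), and PSMB8, PSMB9, NLRC5 and TAP2 were called lower (4 of 9, where 20.4% were). PSMB9 and NLRC5 passed the filter on low counts there only through the DMSO libraries, where they are high, so nothing is read from the count of 4 against that share. The same 6 genes did not overlap between the groups, where 16.1% of all genes were higher without overlap and 24.4% lower. The balance of calls over all genes depended on scaling. Higher calls made up 38.7% of all calls in UM-SCC-47 with TMM, 24.1% with library size only and 50.6% with DESeq2, and 27.4% of all calls in UPCI-SCC-090 with TMM, 42.3% with RLE, 17.1% with library size only and 43.2% with DESeq2. The median log2 fold change of the 9 genes was 0.72 in UM-SCC-47, beside -0.03 over all genes, and -0.50 in UPCI-SCC-090, beside -0.14 over all genes. All 9 were tested in both lines.

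**Figure D2:**
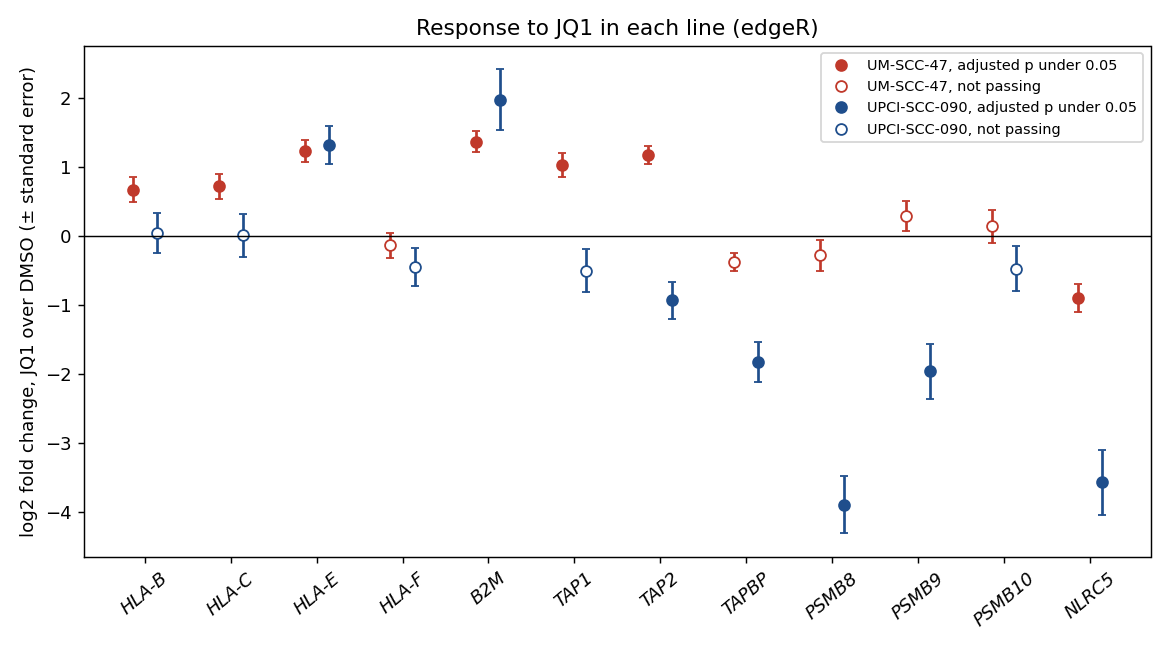
Log2 fold change of JQ1 over DMSO with its standard error (edgeR) for the 9 genes and for HLA-F, TAPBP and PSMB10, in UM-SCC-47 (red) and UPCI-SCC-090 (blue); filled points have an adjusted p under 0.05. B2M and HLA-E stand above 1 in both lines, whereas TAP2 is at 1.17 in UM-SCC-47 and -0.93 in UPCI-SCC-090.

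B2M, the light chain of all class I molecules, had the largest rise of the 9 genes in both lines with TMM, but with GC correction HLA-E rose more (1.63, against 1.46 for B2M, in UM-SCC-47 and 2.31, against 2.04, in UPCI-SCC-090). It was at 4140, 4990 and 4670 CPM in UM-SCC-47 JQ1, against 1780, 1580 and 1940 CPM in UM-SCC-47 DMSO. The log2 fold change was 1.37 ± 0.15 SE, or 2.58-fold (edgeR adjusted p = 9.4e-04). In UPCI-SCC-090 it was at 981, 559 and 940 CPM with JQ1, against 234, 109 and 248 CPM with DMSO. The log2 fold change there was 1.98 ± 0.44, or 3.95-fold (edgeR adjusted p = 0.018). Replicate 2 had the lowest value in both groups of UPCI-SCC-090, and these were the libraries of that line with the steepest rise of counts with GC content. Without UPCI-SCC-090 DMSO replicate 3 the call was lost in UPCI-SCC-090 (2.16, edgeR adjusted p = 0.053). The difference between the responses of the lines was 0.69 ± 0.43 (edgeR adjusted p = 0.43).

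HLA-E was the only one of the heavy chains among the 9 genes that was called higher in both lines. It reached 715, 764 and 574 CPM in UM-SCC-47 JQ1, against 277, 323 and 262 CPM in UM-SCC-47 DMSO (1.24 ± 0.16, edgeR adjusted p = 0.0015). In UPCI-SCC-090 it reached 305, 498 and 272 CPM with JQ1, against 92.7, 161 and 143 CPM with DMSO (1.32 ± 0.27, edgeR adjusted p = 0.013). The JQ1 libraries of UPCI-SCC-090 thus overlapped the DMSO libraries of UM-SCC-47 in HLA-E level. The rise in UPCI-SCC-090 was 2.31 on the log2 scale with correction for GC content, and the call was lost without UPCI-SCC-090 DMSO replicate 3 (1.37, edgeR adjusted p = 0.051). The responses of the lines differed by 0.19 ± 0.38 (edgeR adjusted p = 0.87), a difference that was called with GC correction (0.66, edgeR adjusted p = 0.019).

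HLA-B and HLA-C, classical heavy chains that present peptides to T cells, rose in UM-SCC-47 and were not called in UPCI-SCC-090. HLA-B was at 697, 865 and 561 CPM in UM-SCC-47 JQ1, against 451, 462 and 405 CPM in UM-SCC-47 DMSO (0.67 ± 0.18, edgeR adjusted p = 0.024). HLA-C was at 547, 539 and 369 CPM in UM-SCC-47 JQ1, against 284, 314 and 275 CPM in UM-SCC-47 DMSO (0.72 ± 0.18, edgeR adjusted p = 0.018). The groups did not overlap, but both calls lay near the threshold. HLA-B lost its call without UM-SCC-47 DMSO replicate 1 (0.69, edgeR adjusted p = 0.082), DMSO replicate 2 (0.71, 0.066), DMSO replicate 3 (0.62, 0.095) or JQ1 replicate 1 (0.69, 0.067), and HLA-C without DMSO replicate 1 (0.71, 0.077), DMSO replicate 3 (0.69, 0.076) or JQ1 replicate 1 (0.64, 0.066). Scaled by library size only, the values were 0.42 for HLA-B (edgeR adjusted p = 0.061) and 0.47 for HLA-C (0.060), and in the fit over all 12 libraries 0.69 (0.083) and 0.74 (0.091).

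In UPCI-SCC-090 HLA-B was at 41.3, 52.5 and 30.4 CPM with JQ1, against 24.6, 43.0 and 43.7 CPM with DMSO. HLA-C was at 60.6, 94.5 and 48.0 CPM with JQ1, against 40.1, 77.1 and 67.6 CPM with DMSO. The groups overlapped for both genes, with log2 fold changes of 0.04 ± 0.29 for HLA-B (edgeR adjusted p = 0.95) and 0.01 ± 0.31 for HLA-C (0.99). The sign turned with library size only (-0.16 and -0.19), without UPCI-SCC-090 DMSO replicate 1 (-0.16 and -0.20) and without UPCI-SCC-090 JQ1 replicate 2 (-0.02 and -0.15). With GC correction both genes were called higher, HLA-B by 0.61 (edgeR adjusted p = 0.022) and HLA-C by 0.71 (0.0056). The differences between the lines in the response were -0.53 ± 0.38 for HLA-B (edgeR adjusted p = 0.52) and -0.60 ± 0.42 for HLA-C (0.50).

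The sum of HLA-B and HLA-C, which does not depend on how reads were divided between these genes, was 930 to 1400 CPM in UM-SCC-47 JQ1, against 679 to 776 CPM in UM-SCC-47 DMSO, and 78.4 to 147 CPM in UPCI-SCC-090 JQ1, against 64.7 to 120 CPM in UPCI-SCC-090 DMSO. The balance between HLA-E and these heavy chains differed between the groups in both lines. Within a library, which removes the scaling, HLA-E counts per summed HLA-B and HLA-C count averaged 3.28 ± 0.257 in UPCI-SCC-090 JQ1 and 1.35 ± 0.0755 in UPCI-SCC-090 DMSO (SD, n = 3 each). In UM-SCC-47 they were 0.575, 0.544 and 0.617 with JQ1, against 0.377, 0.417 and 0.386 with DMSO. Neither pair of groups overlapped. The summed HLA-B and HLA-C counts per B2M count were 0.104, 0.263 and 0.0833 in UPCI-SCC-090 JQ1, against 0.276, 1.10 and 0.449 in UPCI-SCC-090 DMSO, and 0.301, 0.282 and 0.199 in UM-SCC-47 JQ1, against 0.413, 0.49 and 0.35 in UM-SCC-47 DMSO. These ratios were chosen after the levels had been seen, are ratios of counts and not of molecules, and were not tested.

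TAP1 and TAP2, the subunits of the peptide transporter, were called higher in UM-SCC-47, and neither was called higher in UPCI-SCC-090. TAP1 was at 282, 326 and 222 CPM in UM-SCC-47 JQ1, against 132, 146 and 123 CPM in UM-SCC-47 DMSO (1.03 ± 0.17, edgeR adjusted p = 0.0038). TAP2 was at 322, 335 and 277 CPM in UM-SCC-47 JQ1, against 139, 146 and 125 CPM in UM-SCC-47 DMSO (1.17 ± 0.13, edgeR adjusted p = 8.5e-04). Both calls held under each of the 16 alternatives. In UPCI-SCC-090 TAP1 was at 25.7, 37.2 and 20.5 CPM with JQ1, against 24.3, 44.8 and 39.4 CPM with DMSO, with overlap (-0.50 ± 0.31, edgeR adjusted p = 0.28, with 0.03 under GC correction). TAP2 was at 17.8, 24.8 and 15 CPM in UPCI-SCC-090 JQ1, against 27.4, 39.2 and 34.6 CPM in UPCI-SCC-090 DMSO, without overlap (-0.93 ± 0.27, edgeR adjusted p = 0.042).

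The call of TAP2 in UPCI-SCC-090 was fragile and was lost under 11 of 16 alternatives. It was lost without UPCI-SCC-090 DMSO replicate 1 (-1.03, edgeR adjusted p = 0.051), DMSO replicate 2 (-0.84, 0.14), DMSO replicate 3 (-0.92, 0.14), JQ1 replicate 1 (-0.74, 0.35), JQ1 replicate 2 (-1.01, 0.051) or JQ1 replicate 3 (-0.68, 0.23). It was also lost with RLE (-0.63, 0.26) and in DESeq2 (-0.62, 0.33), and the sign was negative in all 16. The difference in response between the lines was larger than its error for TAP2, at -2.00 ± 0.31 (edgeR adjusted p = 0.0035), where 3.63% of 14396 genes were called lower in this test and 2.93% higher, and it held under each of 21 alternatives. For TAP1 it was -1.43 ± 0.39 and did not pass (edgeR adjusted p = 0.054), but it was called with the replicate number as a block (-1.41, edgeR adjusted p = 0.034), with library size only (-1.48, 0.017), with GC correction (-1.26, 4.1e-04) and without UM-SCC-47 JQ1 replicate 3 (-1.74, 0.011), UPCI-SCC-090 DMSO replicate 1 (-1.76, 0.0085), UPCI-SCC-090 DMSO replicate 3 (-1.5, 0.049) or UPCI-SCC-090 JQ1 replicate 2 (-1.69, 0.016).

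The immunoproteasome subunits PSMB8 and PSMB9 were called lower with JQ1 in UPCI-SCC-090. PSMB8, the chymotrypsin-like subunit, was at 1.09, 0.581 and 0.729 CPM in UPCI-SCC-090 JQ1, against 7.85, 13.4 and 12.6 CPM in UPCI-SCC-090 DMSO. The log2 fold change of -3.89 ± 0.42, or 14.8-fold lower, was the largest of the 9 genes in either line (edgeR adjusted p = 0.0037), and it ranged from -4.10 to -3.43 over the 16 alternatives, each of which called it. It rested on 30, 12 and 19 counts with JQ1, against 236, 307 and 389 counts with DMSO. In UM-SCC-47 PSMB8 was at 79.8, 114 and 63.9 CPM with JQ1, against 103, 109 and 97.2 CPM with DMSO, with overlap (-0.28 ± 0.22, edgeR adjusted p = 0.34). Without UM-SCC-47 JQ1 replicate 2 this was called lower (-0.53, edgeR adjusted p = 0.026), and without UM-SCC-47 JQ1 replicate 3 the sign turned (0.03, edgeR adjusted p = 0.91). The responses differed between the lines by -3.53 ± 0.44 (edgeR adjusted p = 9.1e-04).

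PSMB9, a second catalytic subunit, was near the limit of detection in UPCI-SCC-090, with 4, 4 and 5 counts with JQ1, against 13, 15 and 27 counts with DMSO. Its level was 0.145, 0.194 and 0.192 CPM with JQ1, against 0.432, 0.656 and 0.872 CPM with DMSO, without overlap (-1.96 ± 0.40, edgeR adjusted p = 0.014). The call was lost in DESeq2 (-1.69, adjusted p = 0.14) and, with edgeR, without UPCI-SCC-090 DMSO replicate 3 (-1.69, edgeR adjusted p = 0.053), JQ1 replicate 1 (-1.71, 0.10), JQ1 replicate 3 (-1.95, 0.054), or both DMSO replicate 2 and JQ1 replicate 3 (-1.88, 0.065). In UM-SCC-47 PSMB9 was at 72.3, 100 and 56.9 CPM with JQ1, against 65.3, 62.1 and 59 CPM with DMSO (0.29 ± 0.22, edgeR adjusted p = 0.33), and it was called higher without UM-SCC-47 JQ1 replicate 3 (0.60, edgeR adjusted p = 0.039). The responses differed by -2.17 ± 0.46 (edgeR adjusted p = 0.016), which was lost without UM-SCC-47 DMSO replicate 3 (-2.13, 0.054) or UPCI-SCC-090 JQ1 replicate 1 (-2.04, 0.055).

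Each immunoproteasome subunit takes the place of a constitutive one, PSMB8 that of PSMB5, PSMB9 that of PSMB6 and PSMB10 that of PSMB7, so the pairs were also set against each other within libraries. In UPCI-SCC-090 the PSMB8 count per PSMB5 count was 0.00221, 8.43e-04 and 0.00174 with JQ1, against 0.0329, 0.0266 and 0.0272 with DMSO. In UM-SCC-47 it was 0.483, 0.457 and 0.477 with JQ1, against 0.636, 0.678 and 0.724 with DMSO, so that JQ1 libraries were lower in both lines without overlap. The PSMB9 count per PSMB6 count went opposite ways in the lines. It was 0.613, 0.589 and 0.652 in UM-SCC-47 JQ1, against 0.374, 0.357 and 0.367 in UM-SCC-47 DMSO, and 8.21e-04, 8.23e-04 and 0.00138 in UPCI-SCC-090 JQ1, against 0.00419, 0.00309 and 0.0046 in UPCI-SCC-090 DMSO. PSMB10 per PSMB7 averaged 0.0139 in UPCI-SCC-090 JQ1 and 0.0222 in UPCI-SCC-090 DMSO without overlap, while the groups of UM-SCC-47 overlapped. PSMB9 and TAP1, whose starts adjoin, did not keep 1 ratio either, with a mean of 0.274 ± 0.0297 PSMB9 counts per TAP1 count in UM-SCC-47 JQ1 and 0.466 ± 0.0372 in UM-SCC-47 DMSO (SD, n = 3 each). These ratios were likewise chosen after the levels had been seen and were not tested. They also move with the constitutive subunit. In UM-SCC-47 the log2 fold change with JQ1 was 0.25 for PSMB5 (edgeR adjusted p = 0.44) and -0.45 for PSMB6 (0.18). In UPCI-SCC-090 it was 0.30 for PSMB5 (edgeR adjusted p = 0.50) and 0.01 for PSMB6 (0.99).

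**Figure D3:**
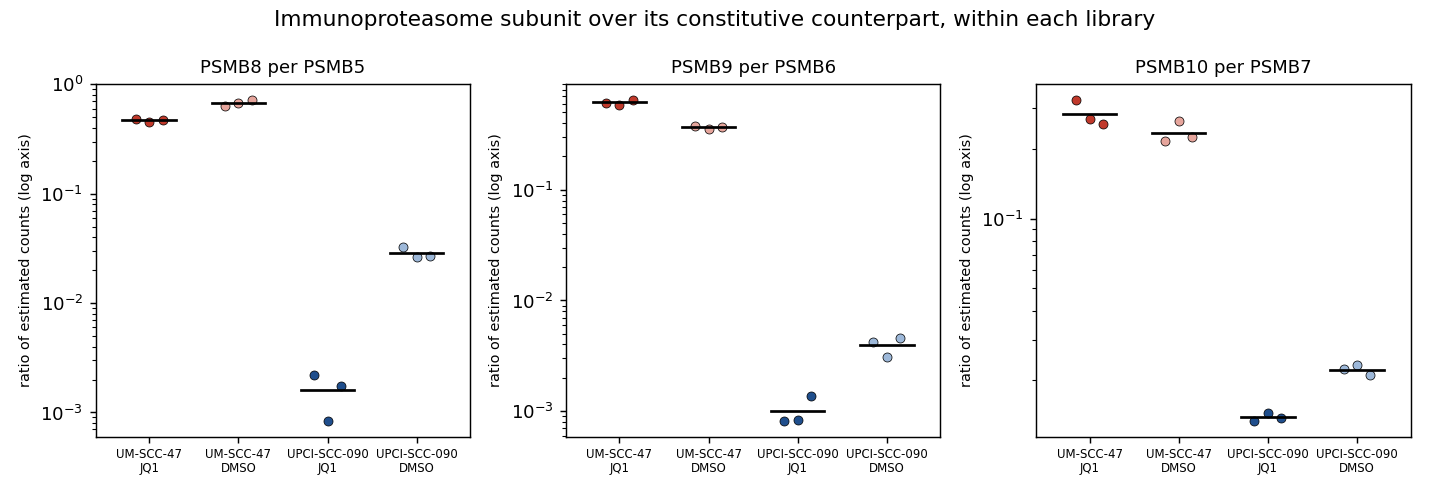
Estimated count of each immunoproteasome subunit divided by that of the constitutive subunit it replaces, in each library, on a log axis; points are libraries and bars are group means. PSMB8 per PSMB5 averages 0.0016 in UPCI-SCC-090 JQ1 and 0.0289 in UPCI-SCC-090 DMSO, and PSMB9 per PSMB6 is higher with JQ1 in UM-SCC-47 and lower with JQ1 in UPCI-SCC-090.

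NLRC5 fell in both lines, including UM-SCC-47, where heavy chains, B2M and the transporter rose. It was at 10.2, 7.64 and 10.3 CPM in UM-SCC-47 JQ1, against 16.6, 20 and 15.4 CPM in UM-SCC-47 DMSO (-0.90 ± 0.20, edgeR adjusted p = 0.013). In UPCI-SCC-090 it was at 0.582, 0.242 and 0.384 CPM with JQ1, against 4.06, 6.30 and 3.45 CPM with DMSO. The fall there was -3.57 ± 0.47 on the log2 scale, or 11.9-fold (edgeR adjusted p = 0.0044), on 16, 5 and 10 counts with JQ1, against 122, 144 and 107 counts with DMSO, and was called under each of the 16 alternatives. The call in UM-SCC-47 was lost in the fit over all 12 libraries (-0.89, edgeR adjusted p = 0.069) and with GC correction and the replicate block (-0.63, 0.059). The responses differed between the lines by -2.59 ± 0.49 (edgeR adjusted p = 0.0098), called under each of 21 alternatives.

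Levels can be set beside each other between genes only per length. The length used was that of all annotated exons of a gene together (4623 bases for HLA-B and 2507 for HLA-C), not that of the expressed transcripts. The order of genes thus depends in part on the annotation. In plain CPM of UM-SCC-47 DMSO, HLA-B (mean 439) lay above HLA-C (291). In mean CPM per kb of exon, B2M was at 1470 in UM-SCC-47 JQ1 and 566 in UM-SCC-47 DMSO, above every other of the 9 genes, and at 265 in UPCI-SCC-090 JQ1 and 63.2 in UPCI-SCC-090 DMSO. HLA-E was at 234 in UM-SCC-47 JQ1, 98.4 in UM-SCC-47 DMSO, 123 in UPCI-SCC-090 JQ1 and 45.2 in UPCI-SCC-090 DMSO, and so stood second in all 4 groups except UM-SCC-47 DMSO, where HLA-C was at 116. HLA-B was at 153, 95.0, 8.95 and 8.03 in the same 4 groups. The immunoproteasome subunits PSMB8 and PSMB9 were at 0.230 and 0.0530 in UPCI-SCC-090 JQ1, and NLRC5, a regulator, was at most 1.40 (in UM-SCC-47 DMSO). Across the groups the order of levels was the same for HLA-B, HLA-C and B2M, from UM-SCC-47 JQ1 through UM-SCC-47 DMSO and UPCI-SCC-090 JQ1 to UPCI-SCC-090 DMSO, with overlap only between the groups of UPCI-SCC-090 for HLA-B and HLA-C. For NLRC5 and PSMB8 the order ran from UM-SCC-47 DMSO through UM-SCC-47 JQ1 and UPCI-SCC-090 DMSO to UPCI-SCC-090 JQ1, with overlap only between the groups of UM-SCC-47 for PSMB8.

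Further genes of the pathway were counted in lists, beside which stand the shares of all genes called, 16.1% higher and 25.5% lower in UM-SCC-47 and 7.67% higher and 20.4% lower in UPCI-SCC-090. Of 10 other class I and class I-like genes tested in UM-SCC-47, 2 were called higher (MICA and ULBP3) and 1 lower (HFE), and of 9 in UPCI-SCC-090, 2 were called higher (MICA and MR1) and 2 lower (HFE and FCGRT). MICA, a stress-induced ligand of natural killer cells, rose by 1.76 in UM-SCC-47 and 1.11 in UPCI-SCC-090, and HFE, a regulator of iron uptake that also pairs with B2M, changed by -2.50 and -3.31. Of the peptide loading genes, 1 of 11 was called higher (HSPA5) and 1 lower (TAPBPL) in UM-SCC-47, and 1 of 10 higher (HSPA5) and 1 lower (TAPBP) in UPCI-SCC-090. TAPBP encodes tapasin, the bridge between TAP and the heavy chain. Its mean was 41.9 CPM in UPCI-SCC-090 JQ1 and 135 CPM in UPCI-SCC-090 DMSO (-1.82 ± 0.29, edgeR adjusted p = 0.0064), against -0.38 ± 0.13 in UM-SCC-47 (0.062), and the difference between the lines was -1.32 ± 0.39 (0.075).

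Of the other 19 proteasome genes 2 were called higher (POMP and PSMA2) and 0 lower in UM-SCC-47 by edgeR (none lower in DESeq2 or at an unadjusted p under 0.05), and their median was 0.25 on the log2 scale. In the other line 3 were called higher (POMP, PSMA5 and PSMB1) and 1 lower (PSME2, a subunit of the interferon-inducible activator) in UPCI-SCC-090, where the median was 0.47. Of 16 genes of transcriptional control tested in UM-SCC-47, 1 was called higher (NFYA, 1.08) and 4 lower, among them EZH2 (-1.14) and NFKB1 (-0.98), and of 15 in UPCI-SCC-090, 0 were called in either direction by edgeR, 2 were higher at an unadjusted p under 0.05 and 1 was called higher in DESeq2. Of 7 genes of the interferon-gamma receptor and its signal, 2 were called higher in UM-SCC-47 (SOCS1, 1.76, and JAK1, 0.66) and 2 lower (IFNGR2, -0.85, and SOCS3, -0.78). In UPCI-SCC-090 1 was called higher (JAK1, a kinase of interferon receptors, 1.83) and 1 lower (SOCS3, an inhibitor of cytokine signalling, -1.88). Of the interferon-stimulated genes outside class I, 1 of 15 was called higher in UM-SCC-47 (IFI6, 1.32) and 7 lower, among them IFI44L (-4.71), RSAD2 (-4.57), OAS2 (-2.62) and OAS1 (-2.27), with a list median of -1.16. In UPCI-SCC-090 1 of 8 was called higher (OAS1, 2.97) and 2 lower, ISG15 (-1.33) and MX1 (-1.82), with a list median of -1.49. DESeq2 called 1 of these 8 higher and 1 lower. Some genes of this list could pass the filter on low counts only through the DMSO libraries, where they were higher. Examples are IFI44L in UM-SCC-47 (mean 0.24 CPM with JQ1) and MX1 in UPCI-SCC-090 (0.428 CPM with JQ1). Nothing is therefore read from the counts of interferon-stimulated genes called or from the medians of this list. Of 4 class II genes tested in UM-SCC-47, 3 were called higher, among them CD74 (1.07), and 0 lower. Another of the 3 averaged 0.119 CPM with DMSO and 1.46 CPM with JQ1 and could pass the filter only through the JQ1 libraries. Nothing is therefore read from this count of class II genes. Of 2 tested in UPCI-SCC-090, 0 were called by edgeR or DESeq2 or had an unadjusted p under 0.05. The same held for the inhibitory ligands, of which 3 were tested in UM-SCC-47 and 1 in UPCI-SCC-090.

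**Figure D4:**
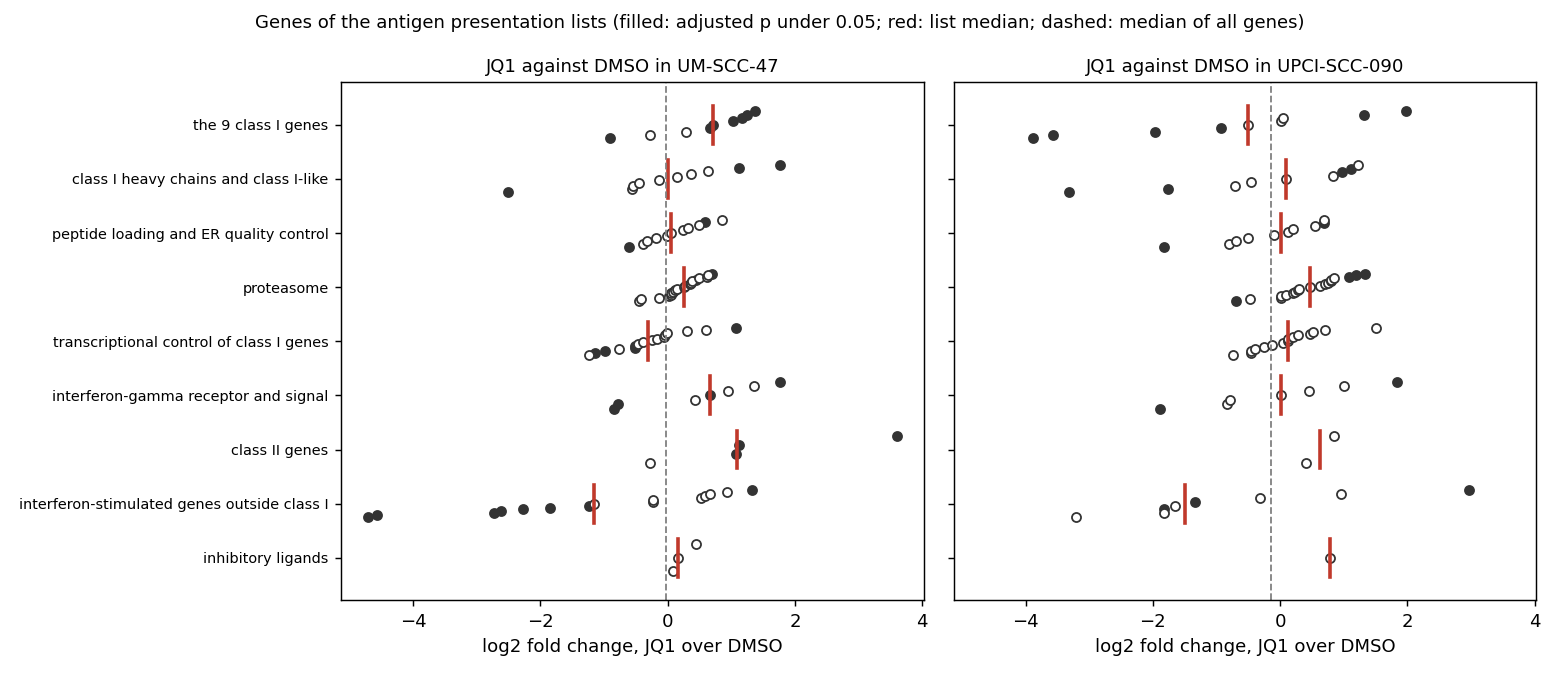
Log2 fold change of JQ1 over DMSO for every tested gene of the 9 class I genes and of 8 further lists, in UM-SCC-47 (left) and UPCI-SCC-090 (right); filled points have an adjusted p under 0.05, red bars are list medians and the dashed line is the median of all genes tested. The median of the 9 class I genes is 0.72 in UM-SCC-47 and -0.50 in UPCI-SCC-090, and that of the interferon-stimulated genes is -1.16 and -1.49. Some of the interferon-stimulated genes could pass the filter on low counts only through the DMSO libraries.

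The mean profile of the 9 genes over the 12 libraries, each gene centred and scaled, was compared with the other 10711 genes at a mean of at least 5 CPM. The nearest were GPRC5A, SMPDL3B, RHOD, TINAGL1 and PCSK6, with Pearson's r of 0.995 to 0.998. GPRC5A, for example, averaged 3400 CPM in UM-SCC-47 JQ1, 1270 CPM in UM-SCC-47 DMSO, 40.7 CPM in UPCI-SCC-090 JQ1 and 48.3 CPM in UPCI-SCC-090 DMSO. The 12 points share 2 lines, so such an r describes mainly the difference between them. Among the 9 genes r with their own mean profile was 0.98 or 0.99 for HLA-B, HLA-C, TAP1, TAP2 and PSMB9, 0.88 for PSMB8, 0.83 for B2M, 0.76 for NLRC5 and 0.67 for HLA-E.

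**Figure D5:**
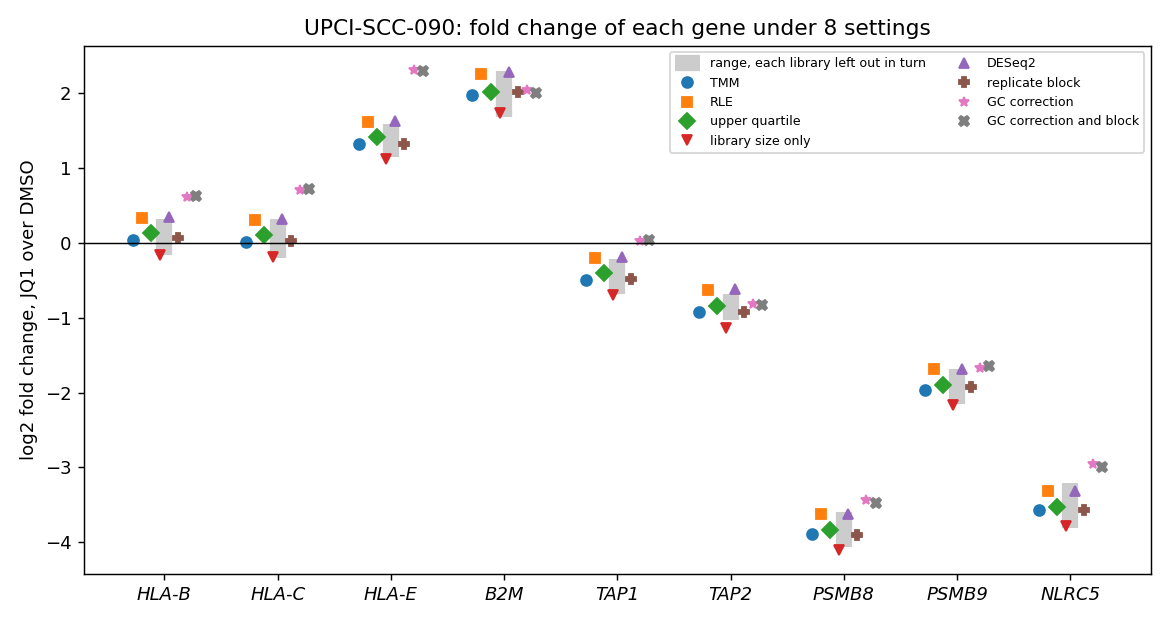
Log2 fold change of JQ1 over DMSO in UPCI-SCC-090 for each of the 9 genes under 8 settings of scaling, tool and model (points) and the range when each library was left out in turn (grey bars). HLA-B and HLA-C lie around 0 and reach 0.62 and 0.72 with correction for GC content and the replicate block, whereas PSMB8 and NLRC5 stay at or below -2.95 under every setting shown.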

How the data were processed

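RNA of 12 libraries (4 groups of 3) was measured by stranded total RNA sequencing, each repeat on 2 lanes. The authors estimated transcript abundance with Salmon and deposited estimated counts for each gene, with no scaling for library size. Versions in the submitters' processing notes are Salmon 0.8.2 and DESeq2 1.28.0, where the methods name others. The transcript index was not given in the sources used here. Reads that fit several transcripts are shared out by Salmon, which makes counts of single class I heavy chains uncertain.

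Rounded counts were tested with edgeR 4.0.16 in R 4.3.3 (filterByExpr, minimum count 10 and minimum total count 15, TMM, quasi-likelihood F test, Benjamini-Hochberg adjustment over all genes tested, threshold 0.05). Each line was fitted alone, the difference between lines as an interaction over 12 libraries, as UPCI-SCC-090 minus UM-SCC-47. Standard errors were taken from each log2 fold change and its F (size over root F). CPM used TMM factors over the 12 libraries. Symbols, GRCh37 positions, exon lengths and GC content came from GENCODE 44 lifted to GRCh37, which held 20015 of the 20738 gene IDs. Scripts were tested on simulated data.

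Total estimated counts ranged from 20349275 to 30788657, and replicates differed by more than sampling noise (chi-square per gene 8.68 to 449). Deviations of same-numbered JQ1 and DMSO libraries of UPCI-SCC-090 had correlations of 0.13, 0.85 and 0.25, and JQ1 replicate 3 correlated most with DMSO replicate 1 (0.88). The numbers thus do not show which libraries belong together, and the main tests used no block on replicate number. In that line the block on replicate number moved no call of the 9 genes, and genes called were 1361 higher and 3141 lower, against 1009 and 2680 without it. Alternatives were other scalings, no filter, DESeq2 1.42.0, a fit over all libraries, the block, a GC correction and leaving out libraries. Genes named were the 9 and, of further lists written from general knowledge, up to 4 per list and direction, called with the largest changes at 5 CPM or more. Some genes of the lists are not reported here. The genes, lists and tests were chosen with earlier results of these data known.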

Additional observations from a re-analysis of the deposited data

Results flagged for a closer look

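The response to JQ1 differed between the lines, by the interaction test, for 4 of the 9 genes. Of all 14396 genes tested, 3.63% were called lower and 2.93% higher. PSMB9 and NLRC5 did not pass the filter on low counts in UPCI-SCC-090 JQ1 and were tested through other groups, where they are high. Nothing is therefore read from the count of 4 against these shares. TAP2 differed by -2.00 on the log2 scale, higher with JQ1 in UM-SCC-47 and lower in UPCI-SCC-090, where its call was lost under 11 of 16 alternatives. PSMB8 differed by -3.53, PSMB9 by -2.17 and NLRC5 by -2.59, each with the lower log2 fold change in UPCI-SCC-090. PSMB8, PSMB9 and NLRC5 had only 4 to 30 counts a library in UPCI-SCC-090 JQ1, and the call of PSMB9 was lost under 2 of 21 alternatives. Groups of 3 libraries are too small for a search for outlying samples.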

How the results depend on the processing

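Of the log2 fold changes of the 9 genes, 556 values under alternative settings kept their direction and their side of the threshold, 17 gained a call, 34 lost one and 14 turned sign. All 9 calls between the lines with DMSO held throughout, as did those of B2M, HLA-E, TAP1 and TAP2 in UM-SCC-47 and of PSMB8 and NLRC5 in UPCI-SCC-090. Scaling moved the median log2 fold change of all genes: in UM-SCC-47 it was -0.03 with TMM, 0.12 with RLE, 0.13 in DESeq2 and -0.28 with library size only, and in UPCI-SCC-090 -0.14, 0.14, 0.16 and -0.38. With RLE 1755 genes were called lower in UPCI-SCC-090, against 2680 with TMM. With library size only 635 genes were called higher there, against 1009, and HLA-B (-0.16) and HLA-C (-0.19) turned sign. In DESeq2 2 of the 9 genes were lower there. One fit over all 12 libraries called 1348 genes higher in UM-SCC-47, against 2163, none of the 9 lower (0, against 1), and 1915 genes higher in UPCI-SCC-090. GC correction called 3516 genes higher in UM-SCC-47 and 3345 in UPCI-SCC-090, there with 4 of the 9 higher and TAP1 at 0.03; in the difference between the lines it called 1396 genes lower and 1240 higher, against 523 and 422, with 1 of the 9, HLA-E, higher (0.66). Without the libraries of the steepest GC trends, 2 of the 9 were lower in UPCI-SCC-090 with TAP1 at 0.03, PSMB8 was at 0.03 in UM-SCC-47, and 326 genes were lower in the difference. The cause of these changes was not tested.

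Leaving out each library in turn gave, in UM-SCC-47, 1198 to 3051 genes higher, 1 to 2 of the 9 lower and PSMB8 at -0.53 to 0.03. In UPCI-SCC-090 it gave 371 to 1303 genes higher and 1009 to 2801 lower, 0 to 2 of the 9 higher and 2 to 3 lower, HLA-B at -0.16 to 0.32 and HLA-C at -0.20 to 0.32. Counts of genes moved by over 1.5 times without UM-SCC-47 DMSO replicate 1 or 3, and without UPCI-SCC-090 DMSO replicate 2 or 3 or JQ1 replicate 1 or 3. In the difference between the lines it gave 201 to 652 genes higher, 256 to 1123 lower and HLA-E at -0.12 to 0.36, with such moves for all but UM-SCC-47 JQ1 replicate 2, UPCI-SCC-090 DMSO replicate 2 and UPCI-SCC-090 JQ1 replicate 3.

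The replicate block left 2164 genes higher and 3450 lower in UM-SCC-47, where same-numbered libraries had correlations of -0.28, 0.22 and 0.59. Those of the 2 lines with DMSO had correlations of 0.04, 0.39 and -0.07. The block gained a call for TAP1 in the difference between the lines (-1.41) and changed no other call of the 9 genes. GC correction with the replicate block called 3300 genes higher in UM-SCC-47 with 0 of the 9 lower, 3335 higher in UPCI-SCC-090 with 4 of the 9 higher and TAP1 at 0.04, and 1202 lower and 1076 higher in the difference, with 1 of the 9 higher. Low counts limited PSMB9, NLRC5 and PSMB8 in UPCI-SCC-090 JQ1, at 4 to 30 counts a library.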
